A study of Mus musculus with 2 samples.

Results

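The angiotensin receptor genes Agtr1a, Agtr1b and Agtr2, the receptor-associated gene Agtrap, and the zona glomerulosa markers Dab2 and Vsnl1 were described in whole mouse adrenal gland. They were chosen by name and matched by symbol, 6 genes of 55536 annotated genes. The samples were total RNA of the adrenal gland from 2 male B6CASTF1/J mice, a cross of the strains C57BL/6J and CAST/EiJ (F1), aged 8 to 10 months. They form 1 group with no treatment and no control, and the labels call replicate 2 animal 4 and replicate 1 animal 2. Both libraries were directional, started from 300 ng of RNA and carried ERCC spike-ins, which are synthetic RNAs added in known amounts. Expected counts, which are read counts estimated per gene and may hold fractions, summed to 33987434 on annotated genes in replicate 2 and 29994901 in replicate 1, and 14731 and 14544 genes had at least 1 TPM (TPM is a level per transcript length, with a common total in each library). The counts of both files were too different for 1 library deposited again (chi-square per degree of freedom 53.2 over 18181 genes), which says nothing more of the animals. The design allowed levels within each gland and the comparison of replicate 2 with replicate 1, with 1 animal on each side and no p-value.

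Angiotensin II is the peptide end product of the renin-angiotensin system: renin cuts angiotensinogen to angiotensin I, and angiotensin-converting enzyme trims this to angiotensin II. In the zona glomerulosa, the outer layer of the adrenal cortex, angiotensin II acts on AT1 receptors. These couple through Gq proteins to phospholipase C and calcium entry, and the cells answer by making aldosterone with the enzyme Cyp11b2. Rodents carry AT1 as a pair of genes, Agtr1a and Agtr1b, while Agtr2 encodes the distantly related AT2 receptor, which in rats is abundant in the adrenal medulla. Agtrap encodes a membrane protein that binds the tail of AT1 and promotes its internalisation. Dab2 encodes a clathrin adaptor that brings receptors of the LDL receptor family into coated pits, and Vsnl1 encodes the neuronal calcium sensor VILIP-1, whose RNA is enriched in the zona glomerulosa.

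Because Agtr1a and Agtr1b are close copies, the first question was whether reads of one could be counted on the other. Each coding sequence is 1077 bases long, and 978 positions (90.8%) are identical. Agtr2, with 1089 coding bases, matched Agtr1a at 54.0% and Agtr1b at 54.7% of aligned positions. The most alike and least alike stretches of 101 bases, the read length that the effective lengths imply, are shown from the mm10 assembly, 5′ to 3′ along the coding strand, with capitals where the pair differ. The first pair covers coding positions 280 to 380 (Agtr1a at chr13:30381233-30381333, plus strand, and Agtr1b at chr3:20316061-20316161, minus strand) and differs at 1 position:
Agtr1a: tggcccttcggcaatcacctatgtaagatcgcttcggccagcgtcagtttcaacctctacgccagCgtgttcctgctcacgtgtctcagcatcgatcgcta
Agtr1b: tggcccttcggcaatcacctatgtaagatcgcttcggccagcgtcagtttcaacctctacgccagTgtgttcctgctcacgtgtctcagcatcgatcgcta
The other pair covers coding positions 971 to 1071, near the end of the coding sequence (Agtr1a at chr13:30381924-30382024, plus strand, and Agtr1b at chr3:20315370-20315470, minus strand), and differs at 22 positions:
Agtr1a: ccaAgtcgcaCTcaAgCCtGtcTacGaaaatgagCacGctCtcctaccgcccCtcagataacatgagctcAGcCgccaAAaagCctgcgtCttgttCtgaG
Agtr1b: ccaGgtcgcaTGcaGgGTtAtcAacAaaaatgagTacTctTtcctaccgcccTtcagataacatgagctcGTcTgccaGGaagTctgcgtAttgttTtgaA
Every 101-base window of the coding sequence held at least 1 difference, with a median of 8 over 977 windows, and the longest identical run was 66 bases. No 101-base word of the leading transcript of any of the 6 genes occurred in a transcript of another gene. These comparisons used mm10 and GENCODE M21 sequence only, and the CAST/EiJ alleles that these mice also carry were not examined. Shorter words were shared, which bears on the kallisto-format values. Of the 31-base words of the Agtr1a transcript with most counts, 93 of 2169 (4.29%) also lie in Agtr1b. Of those of the Agtr1b transcript, 107 of 2117 (5.05%) lie in 35 other genes, with Agtr1a among them. The shared part was 1.51% for Agtrap, 0.694% for Vsnl1, and 0 for Agtr2 and Dab2. The posterior SD of the gene count in the deposited tables was 0.27 counts in replicate 2 and 0.58 in replicate 1 for both Agtr1 genes, so the division of reads between them was nearly fixed. It was 0 for the other 4 genes.

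All 6 genes were detected at 1 TPM or more in both glands, and their levels spanned a wide range. By mean TPM the order was Dab2, Agtr1a, Agtrap, Agtr2, Vsnl1 and Agtr1b. Dab2 and Agtr1a changed places between the animals, and the ranges of Agtr2 and Vsnl1 overlapped, so neither pair of neighbours differed beyond its spread. Levels are those of the RSEM-format tables unless the kallisto-format tables, a separate quantification of the same libraries deposited beside them, are named. Those kallisto-format tables gave the same order except that Vsnl1 stood above Agtr2.

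**Figure D1:**
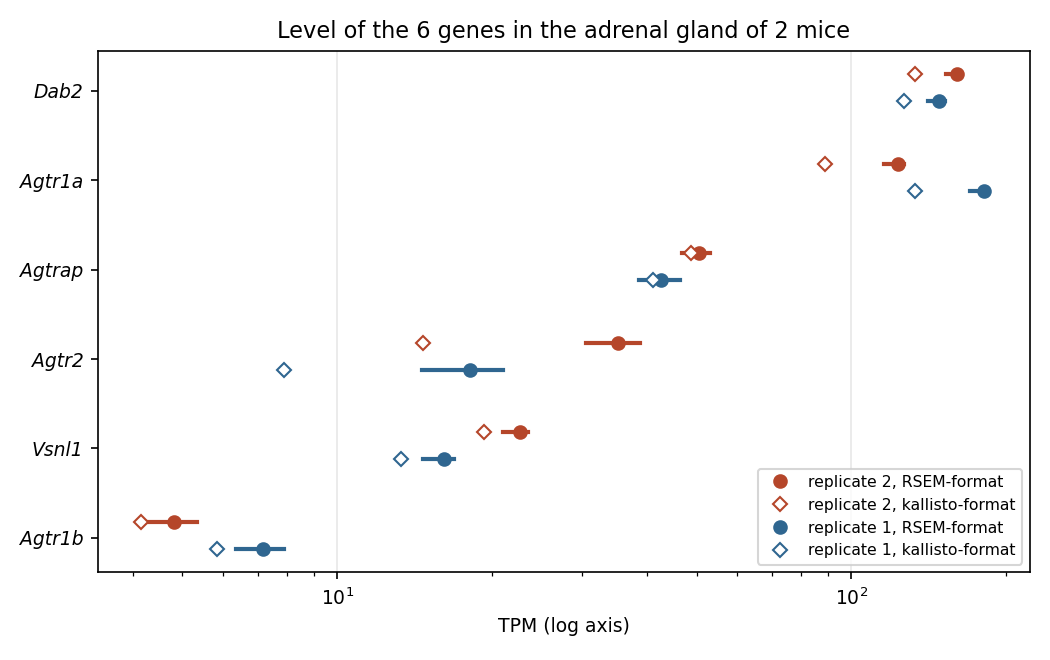
TPM of the 6 genes on a log axis, replicate 2 drawn above replicate 1. Filled circles are the RSEM-format values with the deposited credibility bounds as bars, and open diamonds are the kallisto-format values. Agtr2 has the largest gap between both quantifications, and the order of Dab2 and Agtr1a switches between the glands.

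Agtr1a was the leading receptor gene (ENSMUSG00000049115.15, chromosome 13, 30336441 to 30382867, plus strand). It had 123 TPM in replicate 2 and 181 TPM in replicate 1 (152 ± 40.7, mean ± SD, n = 2), from 6267 and 8595 expected counts. The deposited credibility bounds of the TPM, which give the uncertainty of the quantification in 1 library, were 116 to 127 in replicate 2 and 170 to 184 in replicate 1 and did not overlap. After TMM scaling, which sets libraries to a common composition, the fold of replicate 2 over replicate 1 was 0.622 (95% interval from counting error 0.602 to 0.642), or 1.61-fold lower, and the log2 ratio of CPM + 1 (counts scaled to a common total, plus 1) was -0.68. Agtr1a ranked 420 in replicate 2 and 231 in replicate 1 among the 22015 nuclear protein-coding genes, and its mean TPM was above that of 98.6% of them. The gland with less Agtr1a RNA thus still had it among the most abundant coding genes. In whole tissue, fewer cells of a type and less RNA per cell cannot be told apart. A sense intronic gene inside Agtr1a, Gm48161, had 0.77 TPM in replicate 2 and 0.76 TPM in replicate 1.

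Agtr1b, in rats best known from the pituitary and adrenal, was the lowest of the 6 genes (ENSMUSG00000054988.9, chromosome 3, 20314473 to 20367177, minus strand). It had 4.82 TPM in replicate 2 and 7.19 TPM in replicate 1 (mean 6.005 ± 1.68), from 297 and 402 expected counts. Its fold, 0.630 (0.540 to 0.734), lay close to that of Agtr1a, with a log2 ratio of -0.61. The Agtr1a to Agtr1b ratio of TPM was accordingly nearly the same in both animals, 25.6 in replicate 2 and 25.2 in replicate 1 (25.4 ± 0.307). In the kallisto-format tables it was 21.5 in replicate 2 and 22.7 in replicate 1. Agtr1a was thus the more abundant AT1 RNA in each gland by either quantification.

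Agtr2 was the gene that differed most between the animals (ENSMUSG00000068122.10, X chromosome, 21484544 to 21489164, plus strand). It had 35.2 TPM in replicate 2 and 18.1 TPM in replicate 1 (26.7 ± 12.05), from 1753 and 729 expected counts. The bounds were 30.5 to 38.8 in replicate 2 and 14.6 to 21 in replicate 1. Replicate 2 stood higher outside the counting error, with a fold of 2.05 (1.88 to 2.24) and a log2 ratio of 1.01. The Agtr1a to Agtr2 ratio of TPM was 3.50 in replicate 2 and 9.96 in replicate 1, and 6.05 and 16.9 in the kallisto-format tables. Of the summed receptor TPM, 163 in replicate 2 and 206 in replicate 1, Agtr2 took 21.5% and 8.80%, Agtr1a 75.5% and 87.7%, and Agtr1b 2.95% and 3.49%. These Agtr2 shares include a short noncoding transcript, which took 51.5% of Agtr2 TPM in replicate 2 and 58.9% in replicate 1. In the kallisto-format tables the Agtr2 share was 13.6% in replicate 2 and 5.36% in replicate 1. AT1 RNA was therefore the larger part in both animals, and the AT2 share was the larger in replicate 2.

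Agtrap differed little (ENSMUSG00000029007.8, chromosome 4, 148077061 to 148088031, minus strand). It had 50.6 TPM in replicate 2 and 42.6 TPM in replicate 1 (46.6 ± 5.61), with a fold of 1.08 (1.03 to 1.13). Set against its receptor, there were 0.410 Agtrap TPM per Agtr1a TPM in replicate 2 and 0.236 in replicate 1. Of both genes Agtrap was the steadier, with a log2 ratio of 0.11 beside -0.68 for Agtr1a.

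Dab2 was the most abundant of the 6 genes on average (ENSMUSG00000022150.16, chromosome 15, 6299788 to 6440712, plus strand). It had 161 TPM in replicate 2 and 148 TPM in replicate 1 (155 ± 8.90), from 14167 and 11669 expected counts, and its fold of 1.04 (1.01 to 1.06) was the nearest to equality of the 6. An antisense gene and a pseudogene that overlap Dab2, Gm16311 and Gm18888, were listed at 0 in both. Vsnl1 (ENSMUSG00000054459.8, chromosome 12, 11325242 to 11436613, minus strand) had 22.7 TPM in replicate 2 and 16.1 TPM in replicate 1 (19.4 ± 4.65), with a fold of 1.29 (1.18 to 1.41). Vsnl1 thus stood higher in replicate 2 and Dab2 differed little, while the AT1 receptor genes stood lower there. A wider list of zona glomerulosa genes had no common direction, with 5 ratios above 0 and 4 below. Per TPM of Cyp11b2, Vsnl1 had 0.0865 in replicate 2 and 0.0793 in replicate 1, Dab2 0.613 and 0.730, and Agtr1a 0.470 and 0.891. Cyp11b2 itself is close in sequence to Cyp11b1, and its TPM, 262 in replicate 2 and 203 in replicate 1, was 331 and 302 in the kallisto-format tables, so these ratios are uncertain.

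Read against all genes, 1 of the 6 lay at least 2-fold apart with an interval leaving out equality, namely Agtr2, which was higher in replicate 2; 0 were lower by that much. Genes past this limit with at least 100 counts on average are named called higher or called lower from here on. Among the 12853 nuclear genes whose counts averaged 100 or more, 2.39% were that much higher and 1.15% that much lower (3.54% in either direction). The intervals of all 6 genes left out equality, but so did those of 56.8% of all genes. These intervals cover counting error only and not differences between animals. The deposited bounds failed to overlap for all 6, against 33.0% of all genes. The gap was narrow for Agtrap, with a lower bound of 46.75 in replicate 2 and an upper bound of 46.45 in replicate 1. It was narrow for Dab2 too (152.62 and 152.01). These bounds belong to the TPM as deposited, without TMM scaling. Of these genes 2.15% had a lower ratio than Agtr1a, 2.86% a lower ratio than Agtr1b and 98.1% a lower ratio than Agtr2. Vsnl1 lay above 88.7%, Agtrap above 67.3% and Dab2 above 58.5%. At a lower limit of 1.5-fold Agtr1a and Agtr1b also counted as lower, giving 3 of the 6, beside 10.1% of all genes in either direction and 3.90% lower. The 6 genes had a median log2 ratio of 0.08, against 0.00 over 18181 nuclear genes, with 4 ratios above 0 and 2 below.

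**Figure D2:**
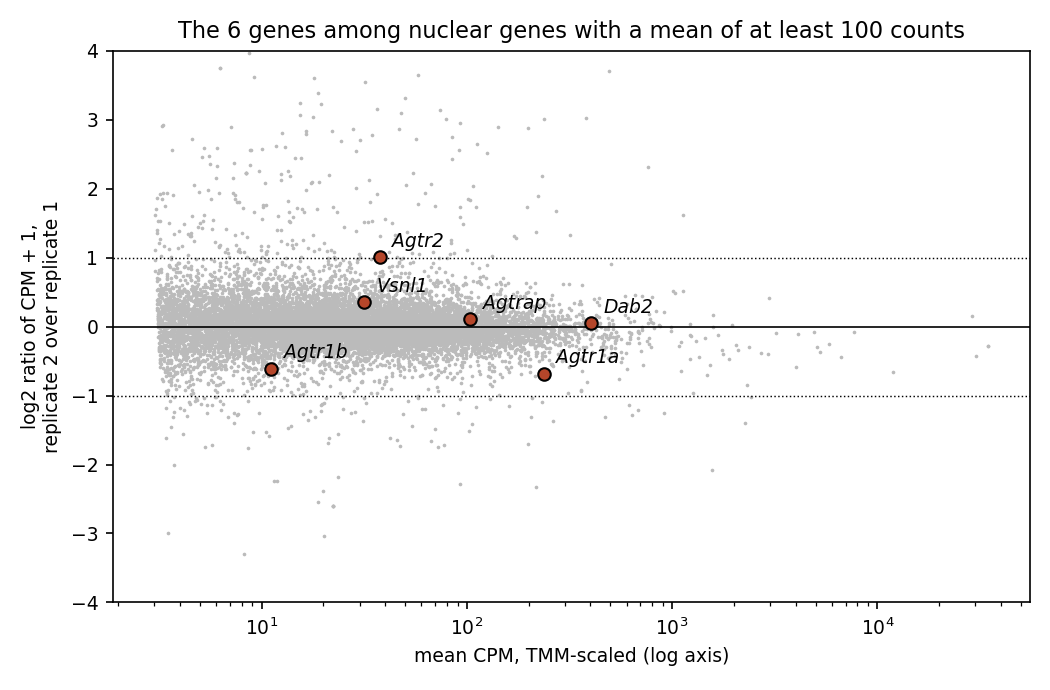
Log2 ratio of CPM + 1, replicate 2 over replicate 1, against mean TMM-scaled CPM on a log axis for 12853 nuclear genes (grey), with the 6 genes named. Dotted lines mark a log2 ratio of 1 and -1, and 5 genes outside 4 either way are not drawn. Agtr2 lies at the upper line, and Agtr1a and Agtr1b lie at like heights below 0 (-0.68 and -0.61) but far apart in CPM.

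The transcript tables showed where the TPM of each gene came from, and 29 annotated transcripts were listed for the 6 genes. The complete coding transcript with 3 exons (ENSMUST00000066412.7) took 76.4% of Agtr1a TPM in replicate 2 and 76.9% in replicate 1. By counts its share was 95% and 95.2%, because the other 5 transcripts are short and TPM divides by length. The longer coding transcript of Agtr1b (2147 bases) took 100% of Agtr1b TPM in replicate 2 and 90.2% in replicate 1. Complete coding transcripts thus carried most AT1 RNA in both animals.

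Agtr2 was divided between a coding and a noncoding transcript, and its TPM depended on that division. The noncoding transcript of 314 bases took 51.5% of its TPM in replicate 2 and 58.9% in replicate 1, from 117 and 64.1 expected counts. The coding transcript of 3283 bases held 93.3% and 91.2% of the gene's counts. In the kallisto-format tables the short transcript took 0% in replicate 2 and 17.7% in replicate 1, and the gene's TPM was 14.7 and 7.87. With complete coding transcripts alone Agtr2 had 17.1 TPM in replicate 2 and 7.45 TPM in replicate 1, a ratio of 2.29. The level of Agtr2 therefore depended on the short transcript, and the higher value in replicate 2 did not.

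Agtrap had a similar split, with 57.3% of TPM in replicate 2 and 58.5% in replicate 1 on the coding transcript of 3996 bases. A noncoding transcript of 621 bases took 42.7% and 36.4%, and 48.8% and 48.3% in the kallisto-format tables. All Vsnl1 TPM lay on the coding transcript of 1903 bases in the RSEM-format tables. In the kallisto-format tables it took 100% in replicate 2 and 87.2% in replicate 1.

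**Figure D3:**
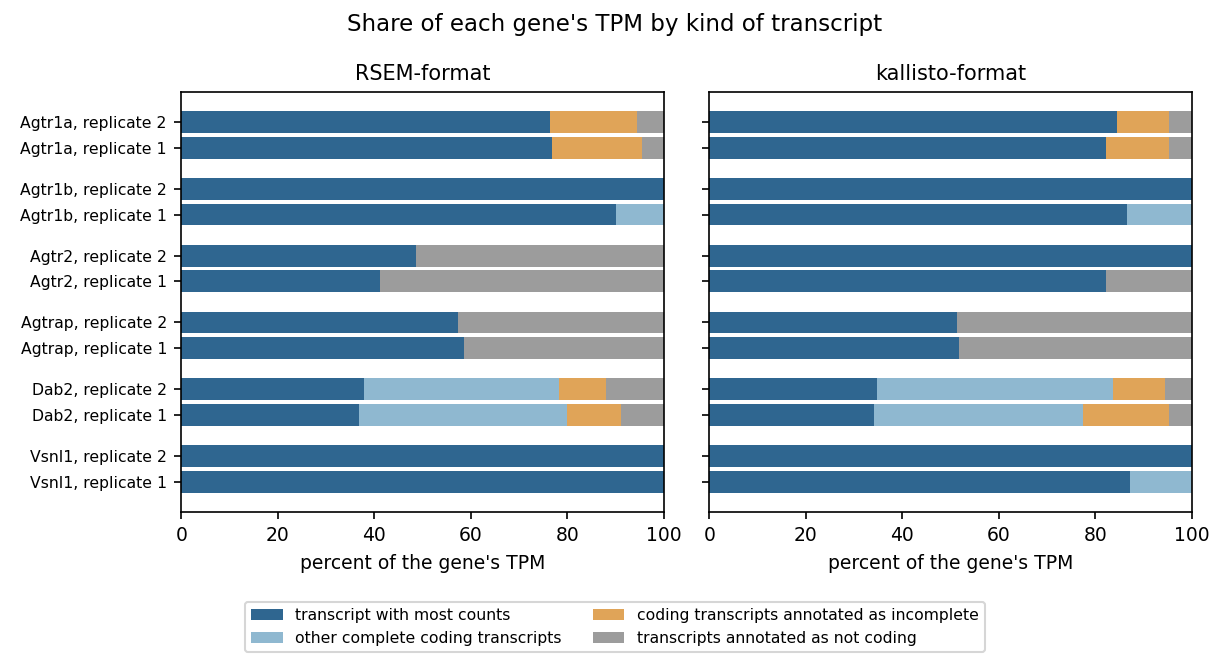
Percent of each gene's TPM by kind of transcript, replicate 2 above replicate 1, in the RSEM-format tables (left) and the kallisto-format tables (right). Noncoding transcripts take 51.5% and 58.9% of Agtr2 TPM on the left, and 0% and 17.7% on the right.

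Dab2 was the gene with most transcripts, 14, and its TPM was spread over several of them. The longest, of 4663 bases, took 37.9% in replicate 2 and 36.7% in replicate 1, and a coding transcript of 1374 bases 15.4% and 16.8%. The longest internal coding exon (chromosome 15, 6429296 to 6429949, 654 bases or 218 codons, a multiple of 3) is skipped by some coding transcripts. Among the 6 coding transcripts that span it, the 3 that include it took 77.6% of their TPM in replicate 2 and 72.9% in replicate 1 (75.3 ± 3.27%). The kallisto-format tables gave 73.7% and 70.6%. Among these 6 transcripts the long form was thus the larger part in both glands by either quantification. Transcripts that do not span the exon, such as the coding one of 1374 bases, are left out of these shares.

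The annotated Dab2 transcripts begin in 5 places. The last of these, at 6422240 to 6423162, need not be a true start, because 1 of its 2 transcripts is annotated with its start not found. The 5 transcripts that begin between 6386598 and 6386779 took 68.2% of Dab2 TPM in replicate 2 and 70.5% in replicate 1, and 82.1% and 76.2% in the kallisto-format tables. The 5 that begin between 6299788 and 6299868 took 15.3% in replicate 2 and 10.2% in replicate 1, but 1.503% and 1.17% in the kallisto-format tables. The remaining places lie further along the gene. That at 6389050 took 3.87% in replicate 2 and 5.97% in replicate 1, that at 6390120 5.86% and 5.23%, and the last 6.84% and 8.11%. Most Dab2 RNA was therefore assigned to the group from 6386598 to 6386779, named downstream here beside the upstream group from 6299788 to 6299868. The upstream share depended on the quantification. The RefSeq sequences (GRCm38.p6, plus strand) just before the first annotated start of each of these 2 groups are shown because they differ in base composition, with CG pairs in capitals. The first lies before the downstream group at chr15:6386498-6386597 and the other before the upstream group at chr15:6299539-6299787:
Dab2 downstream: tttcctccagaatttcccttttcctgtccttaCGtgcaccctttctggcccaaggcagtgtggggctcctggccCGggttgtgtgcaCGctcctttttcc
Dab2 upstream: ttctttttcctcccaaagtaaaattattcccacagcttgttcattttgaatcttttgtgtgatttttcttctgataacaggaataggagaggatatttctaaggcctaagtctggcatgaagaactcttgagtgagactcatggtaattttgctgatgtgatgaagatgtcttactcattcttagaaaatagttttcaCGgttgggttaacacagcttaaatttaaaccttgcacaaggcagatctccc
Over the 250 bases before the RefSeq start, the downstream promoter had 60.0% G and C and 17 CG pairs, and the upstream promoter had 36.8% and 2. These windows are not alike, because the downstream one runs past the first annotated start at 6386598. The 100 bases before that start had 57.0% and 3 CG pairs. For the upstream group, the 249 bases before the first annotated start had 36.5% and 1. Among 32851 RefSeq promoters the medians were 52.4% and 6, and 72.1% of promoters had a lower G and C content than the downstream one, against 6.74% for the upstream one. RefSeq promoters were matched for 5 of the 6 genes. Of the 2 Vsnl1 promoters, that at chr12:11436529-11436828 (minus strand) had 58.0% and 14 CG pairs and the other 41.6% and 4. The values were, for Agtrap, 62.8% and 12, for Agtr1b 52.0% and 5, and for Agtr2 38.4% and 3.

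The rest of the angiotensin system was read from 17 genes of peptide formation and breakdown, of which 12 were detected. The median of the list was 7.68 TPM in replicate 2 and 5.66 TPM in replicate 1. The highest were the lysosomal protease Ctsd (370 and 301 TPM), the angiotensin IV binding aminopeptidase Lnpep (65.3 and 49.9), the aminopeptidase B gene Rnpep (28.5 and 28.3) and the prorenin receptor gene Atp6ap2 (24.96 and 25.5). The precursor itself was scarce: Agt had 0.35 TPM in replicate 2 and 0.44 TPM in replicate 1. Ace, the converting enzyme, had 8.27 TPM in replicate 2 and 7.58 TPM in replicate 1. Mas1, the receptor of angiotensin 1-7, was listed at 0 in both.

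Of 13 genes of the list that averaged 100 counts or more, 1 was called higher in replicate 2 and 0 lower. That gene was Mme, which encodes neprilysin, with 7.72 TPM in replicate 2 and 0.48 TPM in replicate 1, a fold of 13.4 (10.4 to 17.5). Below the count minimum, the renin gene Ren1 was counted 16 times in replicate 2 and 131 times in replicate 1, 9.60-fold lower (5.70 to 17.3), and the chymase gene Cma1 had 23 counts and 2, 9.80-fold higher (2.42 to 85.8). The median log2 ratio of the list was 0.06.

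**Figure D4:**
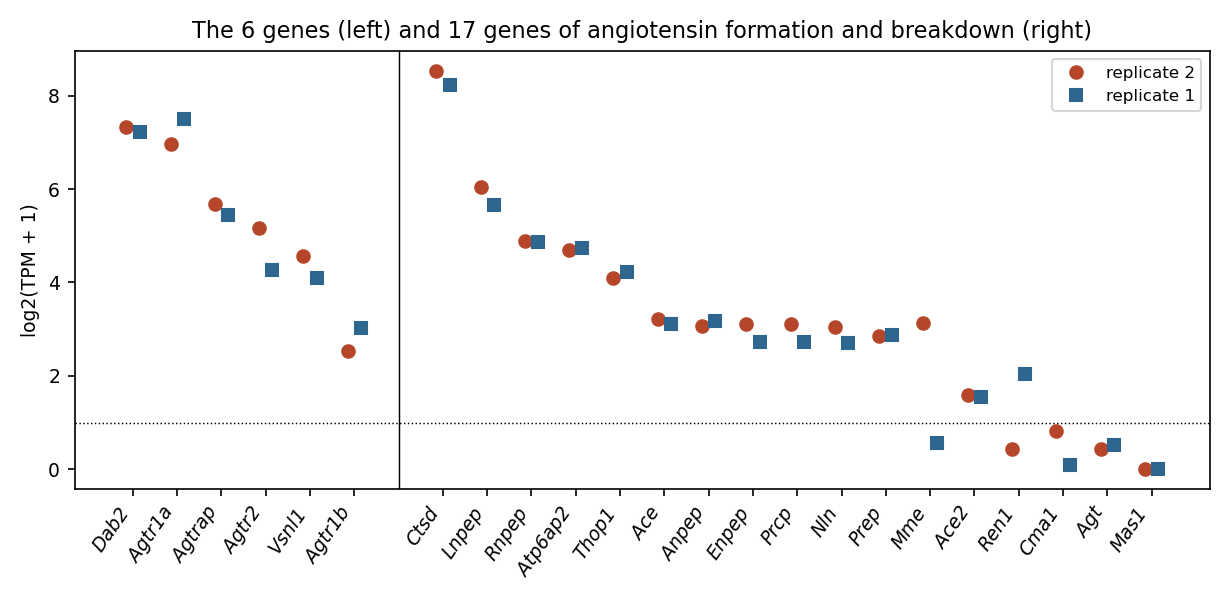
Log2(TPM + 1) of the 6 genes and of 17 genes of angiotensin formation and breakdown, replicate 2 as circles left of replicate 1 as squares. The dotted line marks 1 TPM. Ctsd is the highest at 370 and 301 TPM, Mme and Ren1 show the widest gaps, and Mas1 lies at 0.

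Genes that act after the AT1 receptor were all detected, 22 of 22, and 0 of 22 were called. With 3.54% of all genes called, counts of 0 in this and the following lists are near the background and are not a result about these genes. Their median was 24.2 TPM in replicate 2 and 22.6 TPM in replicate 1, and the highest were the kinase gene Prkcd (43.9 and 59.0), the G protein gene Gna12 (52.3 and 47.3), the calcium channel gene Itpr1 (48.6 and 49.6) and the phospholipase gene Plcb1 (43.5 and 44.9). Of the Gq genes, Gnaq had 22.0 TPM in replicate 2 and 22.2 TPM in replicate 1, and Gna11 39.0 and 35.5. The list had 12 ratios above 0 and 10 below, with a median log2 ratio of 0.04 and Prkcd at -0.55.

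Of the genes whose proteins bind or desensitise the receptor, 13 of 13 were detected and 0 of 13 called, with 7 ratios above 0, 6 below and a median log2 ratio of 0.03. Rgs5 had the widest gap, 16.8 TPM in replicate 2 and 9.88 TPM in replicate 1 (log2 ratio 0.73). Gabarap, a trafficking protein that binds AT1, had 151 TPM in replicate 2 and 157 TPM in replicate 1. Rgs2, which speeds the shut-off of Gq, had 107 and 97.1, the AT2-interacting gene Mtus1 34.5 and 27.3, and the arrestin gene Arrb1 30.5 and 23.2. Of 12 genes of glomerulosa membrane excitability, 10 were detected and 0 of the 10 that averaged 100 counts or more were called. Among the highest were the potassium channel Kcnk3 (515 TPM in replicate 2 and 522 in replicate 1), the potassium channel Kcnk9 (92.8 and 73.2) and the calcium channel Cacna1h (69.5 and 63.0). Kcnj5, a potassium channel gene, stood at 0.79 and 0.47 TPM in the RSEM-format tables but at 30.4 and 24.7 in the kallisto-format tables, so its level could not be fixed.

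Dab2 and Vsnl1 were also set beside their own families. Of 18 endocytic adaptor and partner genes 15 were detected and 0 of 15 were called, with medians of 35.1 TPM in replicate 2 and 31.5 TPM in replicate 1. Dab2, at 161 and 148 TPM, stood above each of them in both glands, though below Ap2m1 in the kallisto-format tables (133 and 127 against 138 and 143 TPM). The highest were the AP-2 subunit Ap2m1 (134 and 137), the clathrin chain genes Cltc (112 and 137) and Clta (65.2 and 58.0), and the receptor gene Lrp1 (101 and 74.2). Its paralog Dab1 had 0.47 and 0.76 TPM. Lrp2, which encodes the Dab2 cargo megalin, was counted 45 times in replicate 2 and 1 time in replicate 1, a ratio of 38.4 (6.54 to 1549), but had 0.266 TPM in replicate 2 and 0.265 TPM in replicate 1 in the kallisto-format tables, which thus show no such gap. Of 12 other neuronal calcium sensors 8 were detected, with medians of 1.56 and 1.64 TPM. Vsnl1, at 22.7 TPM in replicate 2 and 16.1 TPM in replicate 1, was above all of them in replicate 2, and below Ncald in replicate 1 (18.5 and 20.0). Hpcal1 (12.6 and 10.5), Ncs1 (4.08 and 4.23) and Kcnip3 (3.77 and 4.28) followed, and Kcnip1 was the 1 of 6 called, 2.89-fold lower in replicate 2 (1.30 and 3.41 TPM).

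By distance in log2(TPM + 1) over the 2 libraries, protein-coding genes nearest to each gene were Odc1 and Hspe1 for Agtr1a, Gpatch4 and Sdccag8 for Agtr1b, Gpt2 and Epb41l2 for Agtr2, Fgfr1 for Agtrap, Cdc42 and Hnrnpl for Dab2, and Ppa2 and Osbpl2 for Vsnl1. Odc1, for example, had 126 TPM in replicate 2 and 177 TPM in replicate 1. Within a distance of 0.2 lay 5 genes for Agtr1a, 55 for Agtr1b, 18 for Agtr2, 226 for Agtrap, 46 for Dab2 and 197 for Vsnl1. With 2 libraries this likeness is a matter of level and of 1 ratio.

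The glands also differed in their markers of cell types, which are given here beside the receptor genes. The zona glomerulosa list, led by Kcnk3, Cyp11b2, Hsd3b6 and Kcnk9, had 8 of 9 genes detected and 0 of 8 called, with 5 ratios above 0, 4 below and a median log2 ratio of 0.02. The gene not detected was Kcnj5, which had 30.4 TPM in replicate 2 and 24.7 TPM in replicate 1 in the kallisto-format tables. The list shares 4 genes (Cacna1h, Kcnj5, Kcnk3 and Kcnk9) with that of membrane excitability, so the calls of both lists are not separate. Within the zona glomerulosa list, Wnt4 had 31.2 TPM in replicate 2 and 47.6 TPM in replicate 1, and its log2 ratio of -0.73 was the lowest of the list. Those of Cyp11b2 and Kcnk9 were 0.24 and 0.21. All 7 zona fasciculata genes had a ratio below 0 (median -0.66), with Akr1b7 (582 and 2262 TPM) and Scarb1 (609 and 1453) called lower. Star had 4897 and 6855 TPM, Cyp11b1 1712 and 1924, and Abcb1b 1419 and 1458. The log2 ratio of Star was -0.66.

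Marker lists of other cell types differed in direction. All 7 chromaffin genes, the medullary markers, had a ratio below 0, summing to 2240 TPM in replicate 2 and 3140 TPM in replicate 1, with Th (256 and 514) and Pnmt (78.0 and 363) called lower. Chga and Chgb, the highest of the list, were not called. Agtr2 per Th TPM was 0.138 in replicate 2 and 0.0353 in replicate 1, and 0.0605 and 0.0172 in the kallisto-format tables. All 8 genes of white and brown fat were called higher, with sums of 2074 TPM in replicate 2 and 224 TPM in replicate 1, led by Car3, Fabp4, Plin1 and Lpl, with Adipoq, Cfd, Ucp1 and Cidea behind them. The 7 macrophage genes (329 and 206 TPM in sum, led by Lyz2, C1qb, C1qa and C1qc, 0 called) and the 6 capsule and fibroblast genes (280 and 180, with Col3a1 and Col1a1 called higher, beside Dcn, Nr2f2 and Col1a2) all had ratios above 0. The 6 endothelial genes (328 and 323, led by Plvap, Egfl7, Emcn and Kdr) had 2 ratios above 0 and 4 below, and of 5 smooth muscle and pericyte genes Tagln and Acta2 were called lower (80.5 and 127 in sum), while the other 3, among them Rgs5 and Pdgfrb, had ratios above 0 and the list's median log2 ratio was 0.40. No kidney marker of 6 was detected; the list summed to 1.91 TPM in replicate 2 and 0.49 TPM in replicate 1, and Umod was at 0 in both. Counts of Aqp2 were 36 in replicate 2 and 14 in replicate 1, those of Miox 7 and 2, and those of Kap 6 and 0. The part of these differences in the ratios of the 6 genes was not tested.

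**Figure D5:**
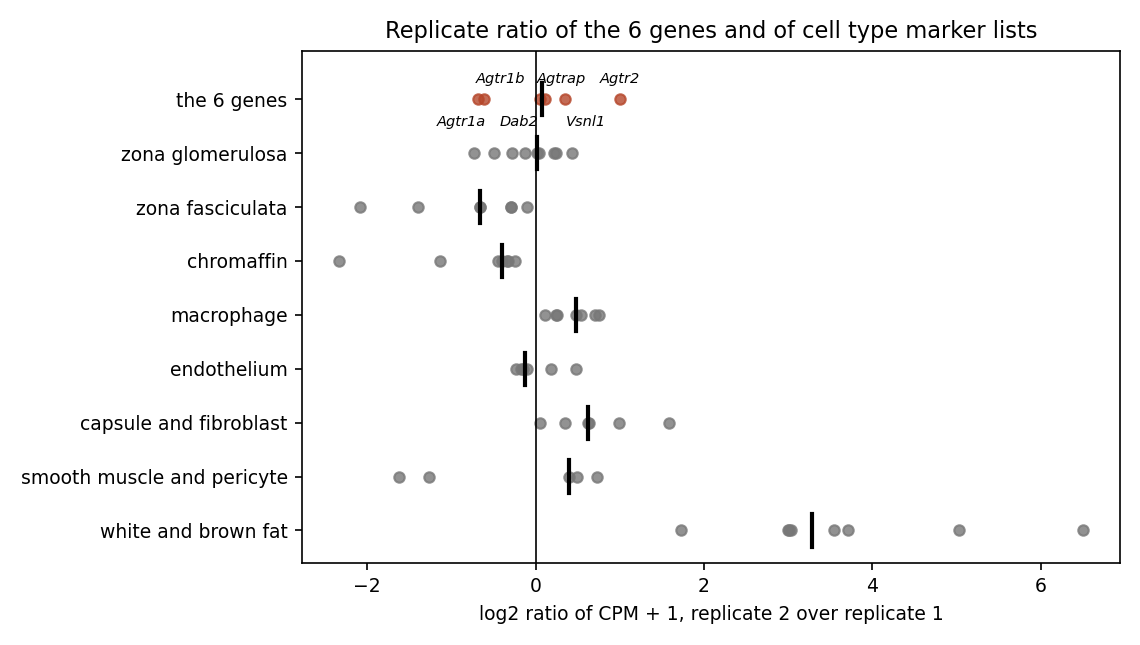
Log2 ratio of CPM + 1, replicate 2 over replicate 1, of the 6 genes (red) and of cell type marker lists (grey points, 1 per gene averaging 10 counts or more, bars at medians). The zona glomerulosa list is centred at 0.02, the zona fasciculata list lies wholly below 0, and the fat list has a median of 3.29.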

How the data were processed

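The members and all gene lists were chosen with earlier results of these data known. The deposited gene tables hold expected counts, not normalized, and TPM, in columns named as RSEM names them, per the file headers. Posterior means and SDs and credibility bounds of the TPM (a signal per gene whose level is not stated) stand beside them in the deposited tables. The deposited transcript tables add IsoPct, each transcript's percent of the TPM of its gene. Further deposited tables give estimated counts and TPM in columns named as kallisto names them, per the file headers. The text deposited with the tables names mm10 and GENCODE M21. The sources used here name no version of the aligner or of either quantifier. Alleles were not separated, so CAST/EiJ reads were read against mm10. Entries other than annotated genes were left out of library sizes.

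TPM were used as deposited, as mean ± SD over 2 animals. A gene was detected at 1 TPM in both. Expected counts, rounded for factors and folds, were scaled with TMM factors (edgeR 4.0.16, R 4.3.3) over genes averaging 10 counts or more. Size factors of DESeq2 1.42.0 served as another scaling. Folds carry exact conditional binomial 95% intervals. Calls needed a mean of 100 counts, a 2-fold difference and an interval leaving out equality. A count of 0 allows 3 counts, or 0.0883 CPM in replicate 2 and 0.100 CPM in replicate 1. Intervals and floors cover counting error only. The smallest two-sided p of an exact paired permutation over 2 animals is 0.5, so none was computed. The 15 lists held 155 entries, all matched. Besides the members, the text names the 4 genes per list highest in mean TPM, any list gene at least 2-fold apart with an interval leaving out equality, and the 2 nearest genes of each member; 2 genes that this rule names are not reported here. Gnaq, Gna11, Agt, Ace, Mas1, Kcnj5, Wnt4, Dab1 and Umod were added after their values were seen. The fold calculation was tested on simulated counts that held counting error only, with planted differences well past 2-fold. That test therefore says nothing of differences between animals or of folds near the limit.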

Additional observations from a re-analysis of the deposited data

How the results depend on the processing

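Under the settings that keep both replicates, 104 values were recomputed, of which 26 moved. A value moved if it changed by more than its spread between the animals or, for log2 ratios, left its interval. Counts of genes moved if they changed by more than 1.5-fold. Of 48 recomputed log2 ratios of the 6 genes 0 changed sign. The 62 values without a replicate say nothing of stability, because leaving out 1 of 2 animals moves a mean by less than 1 SD by construction. The Agtr1a to Agtr1b ratio, 25.4, was 22.1 in the kallisto-format tables and 19.4 with complete coding transcripts only. That restriction was chosen after seeing the data. The Agtr1a to Agtr2 ratio, 6.73, was 11.5 and 12.1 under the same alternatives, and 3.50 without replicate 1 and 9.96 without replicate 2. At 1.5-fold, 3 of the 6 genes differed between the animals, against 1 at 2-fold, beside 10.1% of all genes. Agtr2 had 26.7 TPM, but 11.3 in the kallisto-format tables. Scaling by ERCC spike-ins shifted the median gene by 0.07 on the log2 scale and left 4 members above 0 and 2 below. All 6 genes stayed detected under every alternative run. The cause of these shifts was not tested, except that dropping transcripts lowers a sum by construction. No paired analysis was possible because the labels give 1 group, so replicate numbers pair no samples. With 1 animal on each side, differences between animals cannot be told apart from differences between libraries.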
